A study of Mus musculus with 16 samples.

Results

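The genes described here are 10 that encode proteins of microfibrils and elastic fibres in the mouse heart: the fibrillins Fbn1 and Fbn2, the latent TGF-beta binding proteins (LTBPs) Ltbp1, Ltbp2, Ltbp3 and Ltbp4, elastin (Eln), and the microfibril-associated proteins Mfap2, Mfap4 and Mfap5. They were chosen by gene symbol and are 10 of the 55487 genes in the count table. All 10 had enough counts to be among the 18275 genes tested. Poly(A) RNA was taken from the apex of the heart 4 weeks after surgery, from 16 mice in 4 groups of 4, and sequenced. Ctrl sham mice carried Cardinal, a cardiac long noncoding RNA annotated in mouse as Gm12295, and had the operation without ligation of the aorta. KO sham mice had the same operation in Cardinal-KO animals, in which Cardinal is deleted. Ctrl TAC and KO TAC mice were control and Cardinal-KO animals with transverse aortic constriction (TAC), a ligature that leaves the aorta narrow and so raises the pressure against which the left ventricle pumps. The strain, the age of the animals and the cells in which Cardinal was deleted are not stated in the labels. Each library is labelled as 1 animal.

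Microfibrils are built from fibrillins and form the scaffold on which elastin is deposited, so that tissue can stretch and recoil. LTBPs bind to this scaffold, and most of them hold the growth factor TGF-beta in a latent form outside the cell. In the heart these proteins are laid down mainly by fibroblasts and by the smooth muscle of vessel walls, and microfibril genes are widely used as signs of matrix production. Because these were bulk samples, more cells of a type and more RNA per cell cannot be told apart in any value given here.

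Library totals ranged from 53169437 to 79404714 counts. Levels are given as CPM, the usual per-million scaling of a gene's counts by its library total, adjusted by the TMM method of edgeR. Cardinal itself was at 3.24 to 3.86 CPM in the 4 Ctrl sham libraries, 0.297 to 0.553 in KO sham, 2.69 to 8.02 in Ctrl TAC, and 0.276 to 0.371 in KO TAC 1, 2 and 3. The library labelled KO TAC 4 had 4.55 CPM, within the range of the control libraries and against its label, so tests, counts and levels of KO TAC are also given without it, over KO TAC 1, 2 and 3. The heart identity of the tissue was seen in the summed CPM of 8 cardiomyocyte markers, which was 35378 or more in every library. Ctrl TAC 2 had the lowest share of mitochondrial counts of the 16 libraries (21.9%), and its effect is given where it changes a call. Ctrl TAC 3 had the highest share of its group (27.0%), within the range of the sham libraries (26.8% to 28.8%). It was also the lowest Ctrl TAC library for Ltbp2, Ltbp3, Ltbp4 and Eln.

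The promoters of Ltbp2 and Ltbp1 are shown because these were the members with the largest rise and the only fall after TAC. RefSeq (GRCm38.p6) start sites were at hand for 6 of the 10 members, with 10 windows among them, each running from 250 bases before to 50 after a start: Fbn1, Ltbp1, Ltbp2, Ltbp3, Ltbp4 and Mfap2. Bases before the start site are printed 5′ to 3′ on the strand of the gene, without those inside the annotated exons of the gene, and capitals mark a match to a motif listed after the sequences. The sequence of Ltbp2 is chr12:84876533-84876741 (minus strand), and those of the first and second start of Ltbp1 are chr17:75005279-75005528 and chr17:75178531-75178780 (plus strand).
Ltbp2: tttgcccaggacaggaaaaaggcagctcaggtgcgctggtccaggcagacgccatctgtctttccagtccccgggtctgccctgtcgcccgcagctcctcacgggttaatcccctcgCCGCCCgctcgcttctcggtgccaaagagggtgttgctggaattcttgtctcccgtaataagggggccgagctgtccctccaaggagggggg
Ltbp1, first start: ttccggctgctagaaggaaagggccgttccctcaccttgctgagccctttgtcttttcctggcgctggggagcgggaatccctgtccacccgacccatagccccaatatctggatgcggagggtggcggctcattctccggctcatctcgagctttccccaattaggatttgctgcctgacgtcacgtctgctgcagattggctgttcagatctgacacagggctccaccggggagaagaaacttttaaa
Ltbp1, second start: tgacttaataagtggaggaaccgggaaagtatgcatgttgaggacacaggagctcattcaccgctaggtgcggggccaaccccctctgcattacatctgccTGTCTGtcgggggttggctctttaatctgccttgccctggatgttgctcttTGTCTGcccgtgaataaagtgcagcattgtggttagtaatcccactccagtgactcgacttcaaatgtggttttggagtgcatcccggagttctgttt
The motifs searched on both strands were the TATA box as TATAAA, the AP-1 motif as TGANTCA, the TEAD motif as GGAATG, a SMAD-type element as CAGACA, the GC box as GGGCGG, and the CArG box, with overlapping matches each counted. In the Ltbp2 bases the capitals are a GC box on the opposite strand, at positions -133 to -128 from the start. A further GC box of Ltbp2 lies at positions -9 to -4, inside the annotated first exon, and is not printed. The first Ltbp1 window held none of the 6 motifs. The second held the SMAD-type element on the opposite strand at 2 places, positions -149 to -144 and -98 to -93. Among 32851 windows of the same length, 35.7% held a GC box and 21.04% the SMAD-type element, so neither is rare. Windows of Fbn1, Ltbp4 and Mfap2 also held a GC box, 1 Mfap2 window held a TEAD motif (14.7% of all windows) and a SMAD-type element, and that of Ltbp3 held an AP-1 motif, found in 7.81% of all windows, which overlapped a SMAD-type element. These matches are descriptions of the letters and say nothing about binding.

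In control hearts, pressure overload was accompanied by higher RNA of both scaffold and accessory genes. Of the 10 genes, 8 rose (Fbn1, Ltbp2, Ltbp3, Ltbp4, Eln, Mfap2, Mfap4 and Mfap5), 1 fell (Ltbp1) and 1 was not called (Fbn2). A gene was called, and is said to rise or fall, where the adjusted p of edgeR's quasi-likelihood test was under 0.05. Over all genes tested this called 20.0% in this comparison, 10.4% higher and 9.60% lower. The rises ran from 1.34-fold for Ltbp3 to 9.30-fold for Ltbp2. The median log2 fold change was 0.98 over the 10 genes and 0.00 over all genes tested. For 8 of the genes the 4 Ctrl TAC libraries all lay above the 4 Ctrl sham libraries, as did 10.5% of all genes, and for Ltbp1 they all lay below, as did 9.97%.

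**Figure D1:**
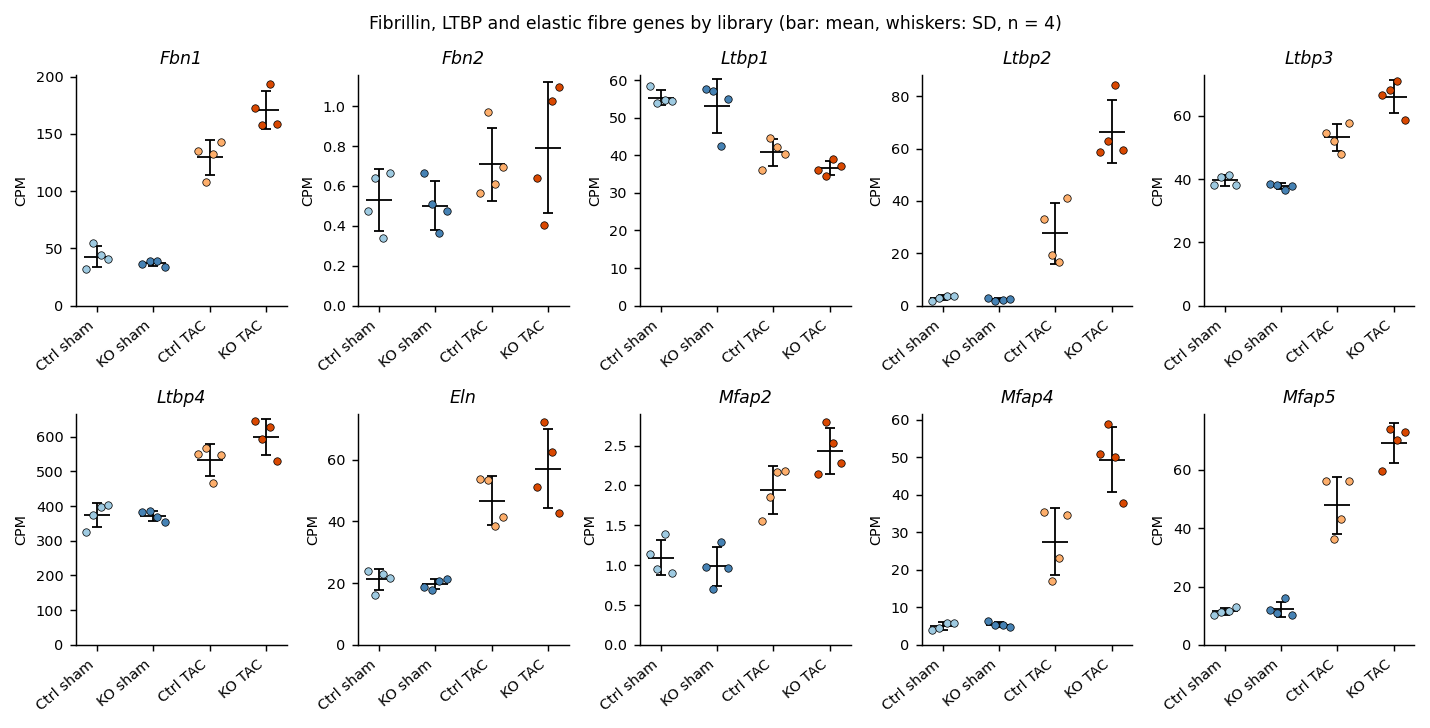
CPM (vertical axis, linear from 0, a separate scale for each gene) of the 10 genes in each of the 16 libraries, by group; points are libraries, and the bar and whiskers are the mean and SD of 4. The sham groups overlap for every gene, within each genotype TAC libraries lie above sham libraries for 8 genes and below them for Ltbp1, and Fbn2 overlaps throughout.

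Fibrillin 1 (Fbn1, ENSMUSG00000027204, chromosome 2 of GRCm38, 125300594 to 125507993, minus strand) forms the backbone of microfibrils in adult tissue. Its level was 31.6, 54.4, 44.6 and 40.6 CPM in the 4 Ctrl sham libraries, and 135, 108, 132 and 142 CPM in the 4 Ctrl TAC libraries. The groups were far apart, and Ctrl TAC 2, the lowest after TAC, was still well above Ctrl sham 2, the highest sham library. Fbn1 rose by 1.60 log2 (SE 0.13, edgeR adjusted p 7.25e-07). Fibrillin 2 (Fbn2), which is used mainly in development, was scarce. Its 16 libraries held 20 to 91 counts, or 0.338 to 1.10 CPM, and every pair of groups compared here overlapped. The log2 fold change of Fbn2 after TAC in Ctrl was 0.43 (SE 0.31, adjusted p 0.373). Fbn1 made up 98.4% to 99.8% of the summed fibrillin CPM per kb of exon length in each library, so the fibrillin RNA of these hearts was nearly all Fbn1.

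The 4 LTBP genes did not move together. Ltbp2 (ENSMUSG00000002020, chromosome 12, 84783212 to 84876532, minus strand) encodes the LTBP that does not bind latent TGF-beta and that attaches to fibrillin 1. It was low in sham hearts, at 1.71, 3.02, 3.53 and 3.74 CPM in Ctrl sham, and reached 33.1, 19.2, 16.8 and 41.1 CPM in Ctrl TAC. Ctrl TAC libraries were themselves spread over more than a factor of 2, but none came near a sham library. The rise was 3.22 log2 (SE 0.32, adjusted p 1.36e-05), rank 30 of the 18275 genes tested. 

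Ltbp1 (ENSMUSG00000001870, chromosome 17, 75005568 to 75392512, plus strand), which holds TGF-beta on microfibrils, was the only one of the 10 genes to fall. It was at 58.5, 53.9, 54.7 and 54.4 CPM in Ctrl sham and at 36.1, 44.5, 42.2 and 40.3 CPM in Ctrl TAC. All Ctrl TAC libraries were below all Ctrl sham libraries, and Ltbp1 fell by 0.44 log2 (SE 0.08, adjusted p 0.000857). The RNA of the 8 cardiomyocyte markers was also lower after TAC, with a median log2 fold change of -0.22 in Ctrl. There 5 of 8 were called lower and 1 higher, against 9.60% and 10.4% of all genes. The part of that change in the Ltbp1 value was not tested.

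Ltbp3 and Ltbp4, both of which bind latent TGF-beta, rose by smaller amounts. Ltbp3 (ENSMUSG00000024940, chromosome 19, 5740904 to 5758532, plus strand) had 38.0 to 41.3 CPM in Ctrl sham and 48.1 to 57.9 CPM in Ctrl TAC, a rise of 0.43 log2 (SE 0.06, adjusted p 9.27e-05). Ltbp4 (ENSMUSG00000040488, chromosome 7, 27305136 to 27337692, minus strand), whose protein helps to assemble elastic fibres, had 324 to 404 CPM in Ctrl sham and 467 to 568 CPM in Ctrl TAC, a rise of 0.51 log2 (SE 0.08, adjusted p 0.000110). Small as they were, these changes exceeded the spread between libraries in both groups.

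Elastin (ENSMUSG00000029675, chromosome 5, 134702593 to 134747323, minus strand), the protein that gives the fibre its recoil, was at 24.0, 16.3, 23.1 and 21.7 CPM in Ctrl sham. It was at 53.6, 53.2, 38.4 and 41.5 CPM in Ctrl TAC, a rise of 1.13 log2 (SE 0.16, adjusted p 0.000200). Ctrl TAC 1 and 2 were higher than Ctrl TAC 3 and 4, and all were clear of the sham range.

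Among the microfibril-associated proteins, Mfap4 (ENSMUSG00000042436, chromosome 11, 61485431 to 61488900, plus strand), which binds elastin and fibrillin and takes part in fibre assembly, rose most. Its level was 3.90, 4.37, 5.93 and 5.85 CPM in Ctrl sham and 35.4, 17.1, 23.1 and 34.6 CPM in Ctrl TAC, a rise of 2.46 log2 (SE 0.23, adjusted p 6.65e-06). Mfap5 (ENSMUSG00000030116, chromosome 6, 122505845 to 122529290, plus strand), a small glycoprotein that attaches to fibrillins, was at 10.3, 11.2, 11.6 and 13.0 CPM in Ctrl sham and at 56.1, 36.4, 43.0 and 56.0 CPM in Ctrl TAC, a rise of 2.06 log2 (SE 0.15, adjusted p 4.59e-07). Mfap2 (ENSMUSG00000060572, chromosome 4, 141010418 to 141015984, plus strand), the related small protein, was scarce, at 0.900 to 1.39 CPM in Ctrl sham and 1.55 to 2.19 CPM in Ctrl TAC. Mfap2 rose by 0.82 log2 (SE 0.19, adjusted p 0.00420). It was the least secure of the rises: with a model term for the animal numbers that start with 25, its adjusted p was 0.0730.

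In KO hearts the same question, TAC against sham, had the same answer gene by gene in direction. Again 8 of the 10 genes rose, Ltbp1 fell and Fbn2 was not called. The background was higher here, with 34.3% of all genes called, 17.8% higher and 16.5% lower, and with 18.0% of genes having all KO TAC libraries above all KO sham libraries and 16.6% all below. The 10 genes divided as in Ctrl, with 8 all above, Ltbp1 all below and Fbn2 overlapping. Their median log2 fold change was 1.42, against -0.00 over all genes. Without the library labelled KO TAC 4 the same 9 genes passed the test in the same directions, where 31.0% of all genes did in either direction. Without KO TAC 2, Fbn2 passed too (adjusted p 0.0295).

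Ltbp2 went from 2.86, 1.87, 2.10 and 2.60 CPM in KO sham to 58.9, 63.0, 84.2 and 59.6 CPM in KO TAC, 28.1-fold higher. The log2 fold change was 4.81 (SE 0.33, adjusted p 2.00e-07), rank 16 of all genes tested, and 4.86 without KO TAC 4. The Ltbp2 level of every KO TAC library was above that of every other library in the data set. 

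Mfap4 went from 4.67 to 6.40 CPM in KO sham to 50.9, 58.9, 50.01 and 37.8 CPM in KO TAC, a rise of 3.19 log2 (SE 0.24, adjusted p 2.20e-07). Mfap5 went from 10.4 to 15.9 CPM to 59.5, 74.2, 70.3 and 73.0 CPM, a rise of 2.50 log2 (SE 0.16, adjusted p 2.57e-08). For Fbn1, KO sham libraries had 34.1 to 38.8 CPM and KO TAC libraries 173, 157, 194 and 159 CPM, a rise of 2.21 log2 (SE 0.13, adjusted p 1.36e-08). These genes thus reached levels in KO TAC from 4.62-fold (Fbn1) to 9.14-fold (Mfap4) above KO sham. The rises over KO TAC 1, 2 and 3 were 3.30 log2 for Mfap4, 2.47 for Mfap5 and 2.24 for Fbn1, with adjusted p values of 3.99e-07, 1.85e-07 and 8.54e-08.

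The remaining genes changed less. Eln rose by 1.54 log2, from 17.8 to 21.2 CPM in KO sham to 51.1, 72.0, 62.4 and 42.8 CPM in KO TAC (adjusted p 5.29e-06). Mfap2 rose by 1.30 log2, Ltbp3 by 0.81 log2 and Ltbp4 by 0.69 log2, with adjusted p values of 3.30e-05, 3.17e-08 and 1.83e-06. Ltbp1 fell by 0.53 log2 (SE 0.08, adjusted p 6.29e-05), from 57.6, 57.2, 42.6 and 54.9 CPM in KO sham to 36.1, 34.6, 39.0 and 37.1 CPM in KO TAC. KO sham 3 was well below the other KO sham libraries for Ltbp1 and still above every KO TAC library. With KO TAC 4 left out the values were 1.66 log2 for Eln, 1.33 for Mfap2, 0.86 for Ltbp3, 0.74 for Ltbp4 and -0.54 for Ltbp1, all still called.

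**Figure D2:**
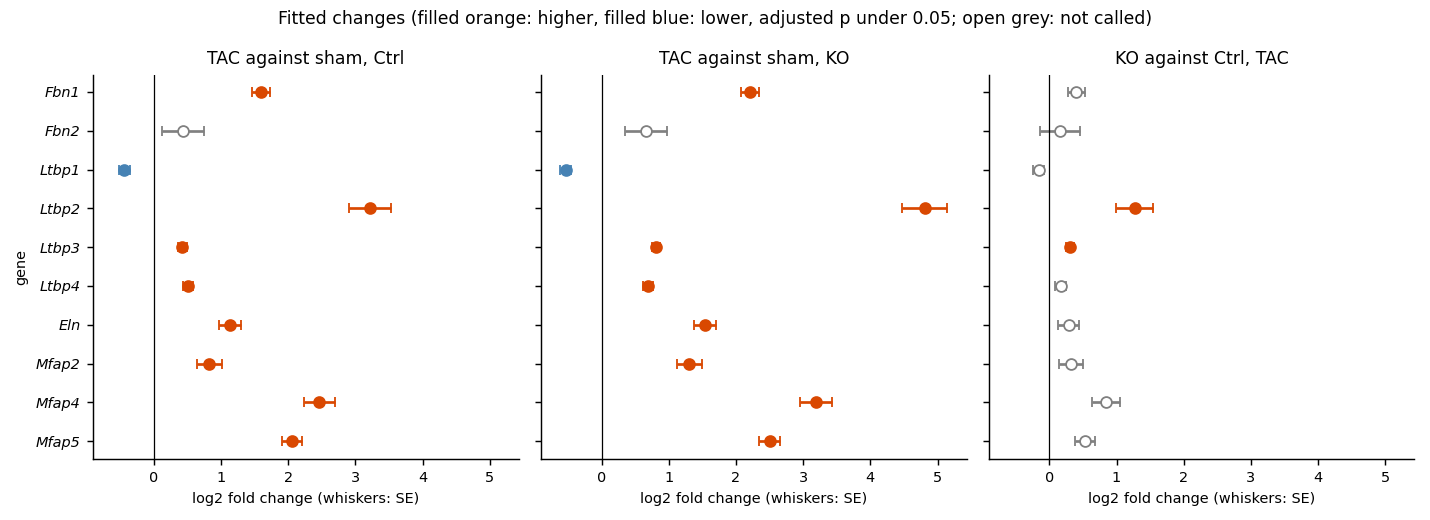
Fitted log2 fold changes (horizontal axis, the same scale in each panel) of the 10 genes for TAC against sham in Ctrl, TAC against sham in KO, and KO against Ctrl after TAC; whiskers are the SE, and filled points passed an edgeR adjusted p of 0.05. Ltbp2 has the largest value in each panel, Ltbp1 is the only filled point below 0, and in the third panel only Ltbp2 and Ltbp3 are filled.

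Whether the deletion altered these genes in unloaded hearts was asked by comparing KO sham with Ctrl sham. None of the 10 genes was called (edgeR; 0% of all genes were), and none had an unadjusted p under 0.05. DESeq2 called 0 of them as well, where it called 0.0165% of all genes. Library ranges overlapped for all 10, where 0.941% of all genes had every KO sham library above and 0.837% every KO sham library below the Ctrl sham libraries. Log2 fold changes ran from -0.33 (Ltbp2, SE 0.35) to 0.11 (Mfap4, SE 0.24), with Fbn1 at -0.21 (SE 0.13) and Ltbp4 at -0.01 (SE 0.08). Cardinal itself, deleted in KO and without overlap between the sham groups, was not called by edgeR either (-2.92 log2, SE 0.82, adjusted p 0.9998). That SE rests on the spread of Cardinal over all 16 libraries, the library labelled KO TAC 4 (4.55 CPM) among them. The SE of the 10 genes was smaller, from 0.06 (Ltbp3) to 0.35 (Ltbp2). Cardinal is therefore no measure of the test for them. Without KO TAC 4, edgeR again called none of the 10, and 1 of 18494 genes tested. The absence of a call here does not show the absence of a difference.

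After TAC, KO hearts had more Ltbp2 and Ltbp3 RNA than Ctrl hearts. These were the 2 genes called among the 10, both higher in KO, against 2.68% of all genes called, 1.36% of them higher and 1.32% lower. Ltbp2 was 2.41-fold higher (1.27 log2, SE 0.27, adjusted p 0.0329), with all 4 KO TAC libraries (58.9 to 84.2 CPM) above all 4 Ctrl TAC libraries (16.8 to 41.1 CPM). Ltbp3 had 66.7, 68.1, 70.9 and 58.6 CPM in KO TAC against 54.6, 52.2, 48.1 and 57.9 CPM in Ctrl TAC, a difference of 0.31 log2 (SE 0.06, adjusted p 0.0161). The KO TAC values of Ltbp3 lay above those of Ctrl TAC by a narrow margin, between the library labelled KO TAC 4, the lowest of its group, and Ctrl TAC 4, the highest of its own.

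The other genes did not pass the test. Mfap4 differed by 0.84 log2 (SE 0.21, adjusted p 0.0522), Mfap5 by 0.53 (SE 0.15, adjusted p 0.0618) and Fbn1 by 0.40 (SE 0.13, adjusted p 0.102). For these 3, as for Ltbp2 and Ltbp3, every KO TAC library lay above every Ctrl TAC library, which makes 5 of the 10 genes where 5.55% of all genes did so and 4.99% lay below. Eln (0.29, adjusted p 0.355), Mfap2 (0.32, 0.350), Ltbp4 (0.17, 0.242), Fbn2 (0.16, 0.824) and Ltbp1 (-0.15, 0.328) overlapped between the genotypes. DESeq2's Wald test called 5 genes, adding Fbn1 (adjusted p 0.0265), Mfap4 (0.00928) and Mfap5 (0.00667) to Ltbp2 and Ltbp3, where it called 7.16% of the genes to which it gave an adjusted p.

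The 2 calls depended on the libraries and on the model. Without the library labelled KO TAC 4, Ltbp2 (1.32 log2, adjusted p 0.0419) and Ltbp3 (0.37 log2, adjusted p 0.00807) were still called and Mfap4 was added (0.95 log2, adjusted p 0.0390), where 2.37% of all genes were called. Neither gene was called without Ctrl TAC 2 (Ltbp2 1.13 log2, adjusted p 0.111, and Ltbp3 0.30 log2, adjusted p 0.0579) or without KO TAC 3 (Ltbp2 1.13 log2, 0.0957, and Ltbp3 0.28 log2, 0.0611). In these fits 63 of 18425 and 84 of 18599 genes were called, against 489 of 18275 in the main fit. Ltbp2 alone also lost its call without Ctrl TAC 3 (adjusted p 0.0687), KO TAC 1 (0.0520) or KO TAC 2 (0.0679). Those fits called 190 of 18484, 258 of 18472 and 152 of 18595 genes. Across 25 settings the Ltbp2 log2 fold change was 1.09 to 1.53 and was called in 16, and that of Ltbp3 was 0.24 to 0.37 and was called in 21.

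Animal numbers in the titles form series that cross surgery and the TAC groups unevenly, and their meaning is not given. Every sham library has a number starting with 3, and the comparisons within a series below use TAC libraries only. Ctrl TAC 2, 3 and 4 and KO TAC 4 have numbers starting with 25, and Ctrl TAC 1 and KO TAC 1, 2 and 3 have numbers starting with 3. The only KO library of the first series is thus the one whose Cardinal level is that of the controls, so its values compare the library labelled KO TAC 4 with Ctrl TAC 2, 3 and 4. Within the first series the mean log2 CPM was higher in the library labelled KO for 8 of the 10 genes, and within the second for 10 of 10. For 6 genes (Fbn1, Ltbp2, Ltbp3, Mfap2, Mfap4 and Mfap5) the libraries labelled KO lay above those labelled Ctrl in both series. The difference between the libraries labelled KO and Ctrl, in log2 CPM, of Ltbp2 was 1.33 and 1.03 in the first and second series, that of Mfap4 0.66 and 0.58, that of Fbn1 0.33 and 0.36, that of Mfap5 0.72 and 0.27, and that of Ltbp3 0.16 and 0.33. Among the TAC libraries each series has 1 genotype with a single library, and no test was run within it. The share of all genes with these patterns was not computed, so the counts have no background to be read against. With a term for the numbers starting with 25, edgeR called none of the 10 genes in KO TAC against Ctrl TAC (Ltbp2 adjusted p 0.150, Ltbp3 0.127). It called 0.0657% of all genes there. For TAC against sham in Ctrl this term left 2479 of 18275 genes called, against 3652 without it, and Mfap2 lost its call (adjusted p 0.0730).

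The difference between the TAC responses of the genotypes was tested as the genotype by surgery interaction. All 10 genes had a response of the same direction and of larger size in KO than in Ctrl, where 50.8% of all genes tested did. The edgeR interaction test called none of the 10 (0.0109% of all genes), with 4 at an unadjusted p under 0.05, while DESeq2 called 2, Ltbp2 (adjusted p 0.0238) and Ltbp3 (adjusted p 0.0178), where it called 0.837% of the genes to which it gave an adjusted p. The edgeR interaction was 1.59 log2 for Ltbp2 (SE 0.44, adjusted p 0.240), 0.38 for Ltbp3 (SE 0.09, adjusted p 0.153), 0.61 for Fbn1 (SE 0.18, adjusted p 0.248) and 0.73 for Mfap4 (SE 0.32, adjusted p 0.422). With the library labelled KO TAC 4 left out, all 10 genes and 50.6% of all genes again had the larger response in KO, and the edgeR interaction was 1.64 log2 for Ltbp2 (adjusted p 0.235) and 0.44 for Ltbp3 (adjusted p 0.117).

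Levels per length were compared as CPM per kb of annotated exon, since long genes collect more counts. Ltbp4 was by far the most abundant of the 10 in every group, at 57.9 ± 5.53 CPM per kb in Ctrl sham and 92.7 ± 7.81 in KO TAC (SD, n = 4). In Ctrl sham it was followed by Ltbp1 (5.18), Ltbp3 (4.37), Fbn1 (3.53), Mfap5 (3.21), Eln (2.62), Mfap4 (2.61), Mfap2 (0.904), Ltbp2 (0.366) and Fbn2 (0.0400). From Ltbp3 to Mfap4 each neighbour in that order overlapped the next, and the other neighbours were separate. In KO TAC the order after Ltbp4 was Mfap4 (25.7), Mfap5 (19.3), Fbn1 (14.1), Ltbp2 (8.12), Ltbp3 (7.29), Eln (7.05), Ltbp1 (3.43), Mfap2 (2.01) and Fbn2 (0.0600). Mfap4 and Mfap5 overlapped, as did Ltbp2 with Ltbp3 and Ltbp3 with Eln. Over KO TAC 1, 2 and 3, Ltbp4 was at 96.2 ± 4.13 (SD, n = 3), Mfap4 (27.7) no longer overlapped Mfap5 (18.9), and Eln (7.63) and Ltbp3 (7.56) changed places. Ltbp1 thus went from the second to the eighth place, and Ltbp2 from the ninth to the fifth.

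Ltbp4 dominated the LTBP sum in every group. The 4 LTBP genes summed to 67.8 ± 5.55 CPM per kb in Ctrl sham, 95.5 ± 8.07 in Ctrl TAC, 67.0 ± 2.65 in KO sham and 111 ± 8.99 in KO TAC (SD, n = 4). In this order of groups Ltbp4 made up 85.3%, 86.3%, 86.0% and 83.1% of that sum, and Ltbp3 6.46%, 6.15%, 6.21% and 6.54%. Ltbp2 and Ltbp1 moved in opposite directions. The Ltbp2 share was 0.348% to 0.632% in Ctrl sham, 0.329% to 0.507% in KO sham, 2.34% to 5.03% in Ctrl TAC and 6.11% to 8.67% in KO TAC. The Ltbp1 share was 7.04% to 9.11% in Ctrl sham, 6.12% to 7.98% in KO sham, 3.43% to 4.73% in Ctrl TAC and 2.86% to 3.49% in KO TAC. In all 4 KO TAC libraries Ltbp2 had passed Ltbp1. In Ctrl TAC it had done so in Ctrl TAC 1 and 4 and not in Ctrl TAC 2 and 3. Over KO TAC 1, 2 and 3 the Ltbp2 share was 7.26% ± 1.30 and the Ltbp1 share 2.96% ± 0.105 (SD, n = 3), and the LTBP sum was 116 ± 4.70 CPM per kb.

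**Figure D3:**
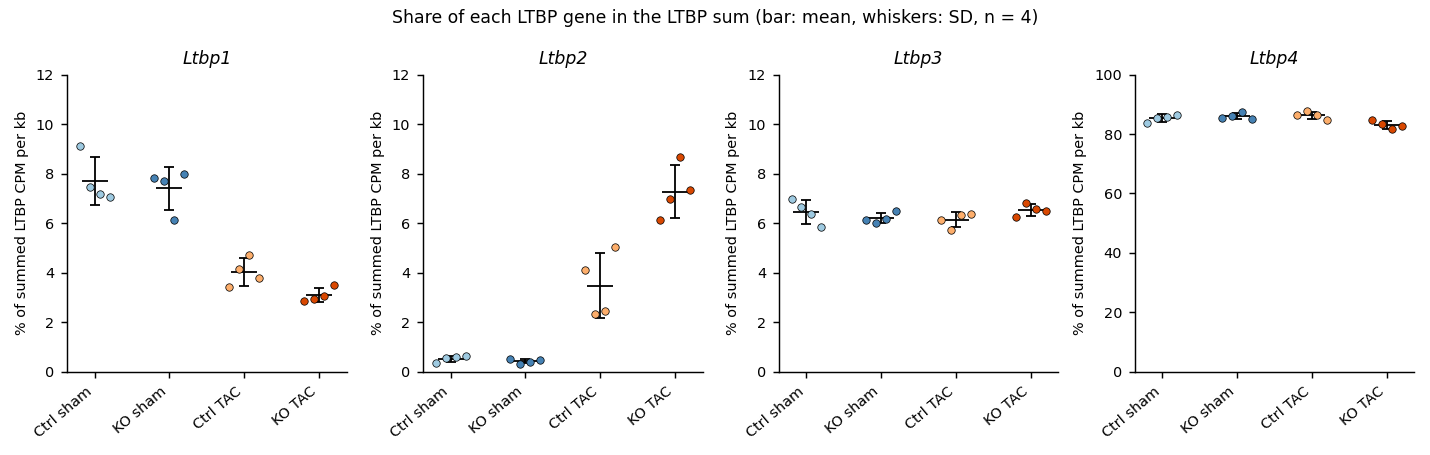
Share of each LTBP gene in the summed LTBP CPM per kb (vertical axis, percent; 0 to 12 for Ltbp1, Ltbp2 and Ltbp3, 0 to 100 for Ltbp4) in each library by group, with mean and SD of 4. The Ltbp2 share climbs to 7.28% in KO TAC while the Ltbp1 share is at 3.09%, and Ltbp3 and Ltbp4 stay within a few percentage points.

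The 3 MFAP genes summed to 6.72 ± 0.839 CPM per kb in Ctrl sham, 7.03 ± 1.01 in KO sham, 29.3 ± 7.36 in Ctrl TAC and 47.0 ± 5.003 in KO TAC (SD, n = 4). Mfap2 gave 13.6% of the sum in Ctrl sham and 4.28% in KO TAC. Mfap4 and Mfap5 gave 38.5% and 48.0% in Ctrl sham and 54.4% and 41.3% in KO TAC. Over KO TAC 1, 2 and 3 the sum was 48.7 ± 4.48 CPM per kb (SD, n = 3), with shares of 4.21%, 56.9% and 38.9% for Mfap2, Mfap4 and Mfap5. The sham ranges of these shares overlapped between the genotypes for each gene.

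Summed levels of cell markers also differed between the groups. The summed CPM of 10 fibroblast markers was 1331 to 1491 in Ctrl sham, 1381 to 1445 in KO sham, 1523 to 2014 in Ctrl TAC and 2009 to 2286 in KO TAC. In Ctrl, 5 of the 10 were called higher after TAC and none lower, and in KO 8 of 10. Over all genes 10.4% were called higher and 9.60% lower in Ctrl, and 17.8% and 16.5% in KO. Between the TAC groups 2 of the 10 were called, both higher in KO TAC. The sum of 8 activated fibroblast markers was 79.2 to 140 CPM in Ctrl sham, 90.1 to 110 in KO sham, 257 to 455 in Ctrl TAC and 680 to 822 in KO TAC. Of these 8, 5 were called higher in KO TAC than in Ctrl TAC and none lower. Over all genes 1.36% were called higher in that comparison and 1.32% lower. The smooth muscle sum (8 markers, 1 of them also in the activated fibroblast list) had a mean of 1761 CPM in Ctrl sham, 1766 in KO sham, 2404 in Ctrl TAC and 2641 in KO TAC, but its members moved in both directions. The median log2 fold change after TAC was 0.03 in Ctrl, with Cnn1 (1.19) and Des (0.58) called higher and Smtn (-0.40) lower, and 0.13 in KO, with 3 called higher and 1 lower. Des is also abundant in cardiomyocytes. The cardiomyocyte sum was 48986 to 56631 CPM in Ctrl sham, 49343 to 54676 in KO sham, 41913 to 46236 in Ctrl TAC and 35378 to 37867 in KO TAC. In KO TAC 1, 2 and 3 the fibroblast sum was 2009 to 2286 CPM, the activated fibroblast sum 712 to 822 and the cardiomyocyte sum 35378 to 37867. No marker of these lists was at 0 in all libraries. The part of these shifts in the members' values was not tested.

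Relative to the fibroblast marker sum, some genes were higher after TAC and others were not. Fbn1 was 3.02% ± 0.690 of that sum in Ctrl sham and 7.19% ± 0.137 in Ctrl TAC, and 7.95% ± 1.17 in KO TAC (SD, n = 4). Ltbp2 went from 0.210% ± 0.0555 to 1.503% ± 0.497 and 3.11% ± 0.735, and Mfap4 from 0.352% ± 0.0529 to 1.504% ± 0.361 and 2.28% ± 0.341. Ltbp3 was at 2.80% ± 0.173, 2.97% ± 0.318 and 3.07% ± 0.313, and Ltbp4 at 26.4% ± 1.40, 30.0% ± 5.09 and 27.8% ± 2.53, and the libraries of these 3 groups overlapped for both genes. KO sham libraries also overlapped KO TAC for Ltbp4, while for Ltbp3 they lay below, at 2.52% to 2.79% against 2.84% to 3.53%. Ltbp1 dropped from 3.92% ± 0.342 to 2.30% ± 0.453 and 1.71% ± 0.194. Over KO TAC 1, 2 and 3 the means were 8.04% for Fbn1, 3.18% for Ltbp2, 2.44% for Mfap4, 3.15% for Ltbp3, 28.5% for Ltbp4 and 1.68% for Ltbp1. These ratios carry no test, and the markers themselves changed after TAC.

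Within groups the genes varied together only in part. After the mean of each group was removed from log2 CPM, Pearson's r over the 16 libraries was above 0 for 25 of the 28 pairs among the 8 genes that rose, with a median of 0.31. The highest of these was Ltbp2 with Mfap4 (0.74) and the lowest Fbn1 with Eln (-0.44). Ltbp1 had r below 0 for 8 of 9 pairs, but the median was only -0.21, with a range from -0.77 with Mfap5 to 0.55 with Fbn2. Without Ctrl TAC 2 and KO TAC 4, r was 0.76 for Ltbp2 with Mfap4, -0.57 for Fbn1 with Eln and -0.76 for Ltbp1 with Mfap5. Libraries share depth and cell make-up, so r is given as a description.

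**Figure D4:**
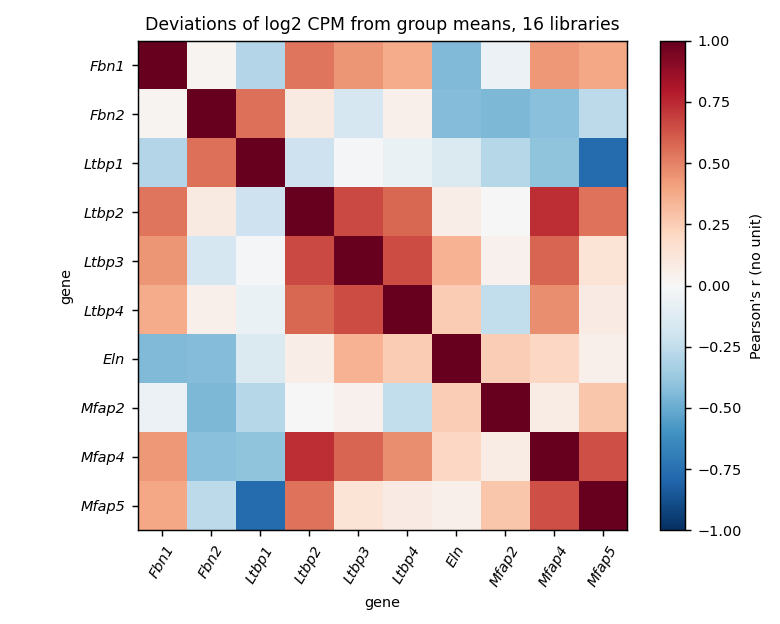
Pearson's r (colour, from -1 in blue to 1 in red) between the 10 genes over 16 libraries, computed on deviations of log2 CPM from the group means. The reddest pairs join Ltbp2 with Mfap4 (0.74) and Ltbp3, and the row of Ltbp1 is mostly blue, down to -0.77 with Mfap5.

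Over all 16 libraries, groups and KO TAC 4 included, the genes with the pattern most like each member were found among 10148 genes by Pearson's r of log2 CPM. Since sham and TAC differ, this likeness mostly follows the group means. Fbn1 was closest to Loxl2, a lysyl oxidase-like enzyme that cross-links matrix (r 0.994), and Col5a1, a fibrillar collagen chain (0.993). Ltbp2 was closest to Cilp (0.994) and Postn (0.993), and Ltbp3 to Ccn5 (0.981) and Postn (0.979). Mfap4 was closest to Itgbl1 (0.995) and to Nppa (0.994), the atrial natriuretic peptide of loaded cardiomyocytes, and Mfap5 to Fstl1 (0.994) and Pi16 (0.994). Cilp, Postn and Pi16 were also among the fibroblast or activated fibroblast markers used here. Eln was closest to Prelid1 (0.966) and Zyx (0.959), Ltbp4 to Lrp1 (0.973) and Tspan17 (0.973), and Mfap2 to Nol3 (0.958) and Ddah2 (0.948). Ltbp1 was closest to Fgf13 (0.987) and Ccdc141 (0.983), and Fbn2, with few counts, reached only 0.846 with Plce1 and 0.809 with Etv6.

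Genes that build and cross-link the fibre changed mostly upward after TAC. Of 22 such genes 21 were tested, and in Ctrl 12 rose and 2 fell after TAC, with a median log2 fold change of 0.57. Over all genes tested 10.4% rose and 9.60% fell there, with a median of 0.00. In KO 14 of the 21 rose and 2 fell (median 0.68), against 17.8% and 16.5% of all genes (median -0.00). The largest rises were those of Adamtsl2, a secreted protein that binds fibrillin and LTBP1 (2.83 log2 in Ctrl and 2.89 in KO), Lox, the lysyl oxidase that cross-links elastin and collagen (1.56 and 2.65), and Loxl2 (1.65 and 2.20). The genes that fell were Efemp1, or fibulin 3 (-1.46 and -1.96), and Emilin2, a glycoprotein of elastic tissue (-0.88 and -1.03). In KO TAC against Ctrl TAC 4 were called, all higher, where 1.36% of all genes were called higher and 1.32% lower. The 4 were Lox (1.02 log2, adjusted p 0.0104), Loxl3 (0.62, 0.0104), Loxl1 (0.46, 0.0374) and Fbln5, or fibulin 5 (0.46, 0.0167). Lox had 6.75 to 12.7 CPM in Ctrl TAC and 14.9 to 22.8 CPM in KO TAC, without overlap.

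Genes for TGF-beta and its release from the latent complex were all tested (16 of 16). In Ctrl 10 rose and 1 fell, and in KO 13 rose and 1 fell, with medians of 0.25 and 0.48. The shares and medians of all genes in these comparisons are those given for the assembly genes. Among the ligands, Tgfb2 rose by 0.99 log2 in Ctrl and 1.63 in KO, and Tgfb3 by 0.67 and 1.10. Thbs1, thrombospondin 1, which can activate latent TGF-beta, rose by 2.12 and 2.64 log2, and Itgb8, an integrin chain with a role in that activation, by 0.78 and 0.87. Tgfbr3, the coreceptor betaglycan, fell by 0.43 log2 in Ctrl and by 0.52 log2 in KO. In KO TAC against Ctrl TAC, Thbs1 (0.91 log2, adjusted p 0.0183) and Tgfb3 (0.39, 0.0421) were called, both higher.

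Of 16 elastin-degrading proteases and protease inhibitors, 14 were tested. In Ctrl 5 rose and none fell, and in KO 9 rose and 2 fell, with medians of 0.15 and 0.45. Here too the shares and medians of all genes are those given for the assembly genes. Timp1, a metalloproteinase inhibitor, rose by 2.09 log2 in Ctrl and 2.66 in KO, the protease inhibitor Serpina3n by 1.10 and 1.92, and the elastin-degrading cathepsin Ctsk by 0.93 and 1.54. The genes that fell in KO were Mmp9 (-0.71, adjusted p 0.0193) and Timp4 (-0.63, adjusted p 0.0215). In KO TAC against Ctrl TAC 5 were called, all higher, led by Serpina3n (0.70 log2, adjusted p 0.0163), Ctsk (0.60, 0.0184) and Mmp2 (0.56, 0.0194). With the term for animal numbers starting with 25, none of the assembly or TGF-beta genes and 1 of the proteases and inhibitors (Serpina3n, 0.84 log2, adjusted p 0.0449) was called by edgeR in KO TAC against Ctrl TAC. Leaving out the library labelled KO TAC 4, edgeR no longer called 3 genes of these lists after TAC in KO, Fbln1 (adjusted p 0.0829), Nrros (0.0693) and Mmp9 (0.0613). Between the TAC groups it then lost Tgfb3 (adjusted p 0.0699) and added Lrrc32 (0.0479).

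**Figure D5:**
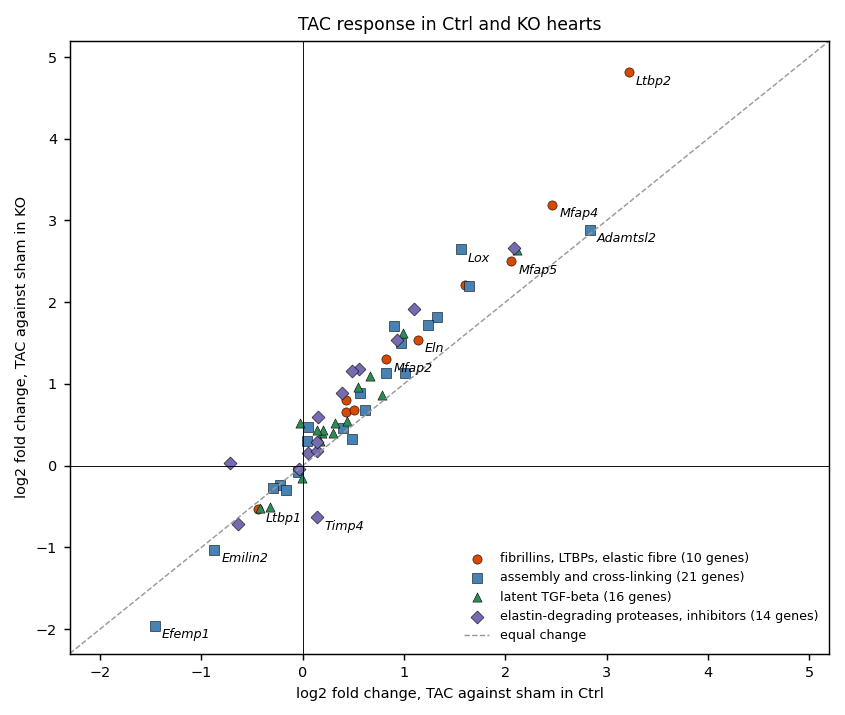
Log2 fold change of TAC against sham in Ctrl (horizontal axis) and in KO (vertical axis) for the 10 members and the 51 tested genes of the 3 related lists, 1 point per gene; the dashed line marks equal change. The 10 members lie farther from 0 in KO than in Ctrl, on the same side, with Ltbp2 farthest out at 3.22 and 4.81.

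Annotated exons of several of the 10 genes overlap exons of a gene on the opposite strand, and whether counting used the strand is not given in the sources used here. For Fbn1 the overlap with Gm9913 covers 20.1% of its exon bases, and for Ltbp2 that with D030025P21Rik covers 9.34%, but these neighbours held at most 7 and 12 counts in any library. Mfap4 shares 4.63% of its exon bases with Mapk7 (330 to 603 counts), so a small part of its counts could belong to the neighbour. Eln shares 3.3% with Gm30003, which held at most 6 counts, and Fbn2 0.976% with Gm26507.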

How the data were processed

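Raw counts were deposited by the authors as a single gene table (Ensembl identifiers) holding 16 columns, each for 1 mouse. The submitters' processing notes name GRCm38, cutadapt 2.3, FastQC, HISAT2 2.1.0 and edgeR 3.26.1. The counting program, its annotation and its use of strand are not given in the sources used here. Names, positions and exon lengths came from GENCODE M21 (GRCm38), which held 55227 (99.5%) of the identifiers. Columns were matched to mice by animal number.

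Counts were filtered with filterByExpr, scaled by TMM and fitted to all 16 libraries with edgeR 4.0.16 (R 4.3.3; glmQLFit with the robust option, 1 mean per group). Contrasts were tested with glmQLFTest, and Benjamini-Hochberg adjusted p values over 18275 genes were called under 0.05. The SE is the log2 fold change over the square root of F. Log2 CPM used a prior count of 2. The fit was tested on simulated data.

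The genes, the 3 related lists, the marker lists and the tests were chosen with earlier results of these data known. Genes outside the 10 were named as the 3 largest rises and falls among called genes of each list and contrast, and as the 2 genes most correlated with each member (average log2 CPM of at least 2, no predicted-gene or Rik names). Fbln5, Fbln1, Nrros, Lrrc32, and the smooth muscle, atrial and valve markers named singly were chosen after their values were seen. Alternatives were RLE scaling, DESeq2 1.42.0 (Wald test), fits to unfiltered genes and to genes with at least 10 counts in each library, a threshold of 0.01, terms for the animal-number series, fits to 8 libraries, and the omission of single libraries. Levels without KO TAC 4, and most settings for the 3 related lists, were added after seeing the data. Promoter windows came from RefSeq. Protein sequences were not used here.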

Additional observations from a re-analysis of the deposited data

Results flagged for a closer look

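Ltbp2 in KO TAC 3, at 84.2 CPM, was set apart from KO TAC 1, 2 and 4, at 58.9 to 63.0 CPM. Its gap to the nearest library was 0.837 of the range of the group, above Dixon's critical value for 4 samples. It was the only such value among 40 groups of the 10 genes, where chance gives about 1 in 20. Without KO TAC 3 the log2 fold change of Ltbp2 in KO TAC against Ctrl TAC was 1.13 (edgeR adjusted p 0.0957), and that of TAC against sham in KO stayed called.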

How the results depend on the processing

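The TAC calls held under nearly every setting. In Ctrl, 9 genes were called in each of the 16 fits that left out 1 library, and in KO 9 to 10. Mfap2 lost its call in Ctrl once a term marked animal numbers that start with 25, and the log2 fold change of Fbn2 there was -0.0036. In KO TAC against Ctrl TAC, where 2 of the 10 genes were called, the count was 5 with DESeq2, 1 without a filter, 0 at an adjusted p under 0.01, 0 with the term for numbers starting with 25, 0 in the fit to the 8 libraries compared, 1 without Ctrl TAC 2 and KO TAC 4 together, and 0 to 4 when single libraries were left out. The count was 0 without Ctrl TAC 2 or KO TAC 3, 1 without Ctrl TAC 3, KO TAC 1 or KO TAC 2, and 4 without Ctrl sham 1, Ctrl TAC 1 or Ctrl TAC 4. Over all genes, 489 of 18275 were called in the main fit, 285 of 36333 without a filter and 154 of 17568 in the fit to 8 libraries. Calls numbered 63 of 18425 without Ctrl TAC 2, 84 of 18599 without KO TAC 3 and 109 of 18349 without Ctrl TAC 2 and KO TAC 4. They numbered 560 of 18502 without Ctrl sham 1, 515 of 18575 without Ctrl TAC 1 and 733 of 18496 without Ctrl TAC 4. The interaction count was 0 with edgeR, also in every fit without 1 library, and 2 with DESeq2.

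In the same comparison the assembly genes called were 2 to 6 when single libraries were left out and 0 with that term, the TGF-beta genes 0 to 3 and 0, and the proteases and inhibitors 2 to 5 and 1. Proteases and inhibitors called in Ctrl after TAC were 4 to 8 when single libraries were left out, 8 without Ctrl TAC 2, and assembly genes called in the interaction 0 to 1. Settings added for these lists after seeing the data gave, in KO TAC against Ctrl TAC, 5 TGF-beta genes with DESeq2, 4 with at least 10 counts in each library and 0 without Ctrl TAC 2 and KO TAC 4 together, 3 proteases and inhibitors in the fit to 8 libraries, and 0 of each list at an adjusted p under 0.01. In the interaction DESeq2 called 1 assembly gene and 3 proteases and inhibitors. Of the genes to which it gave an adjusted p, DESeq2 called 7.16% in KO TAC against Ctrl TAC and 0.837% in the interaction. In Ctrl after TAC, 7 TGF-beta genes passed 0.01, and 8 proteases and inhibitors were called without the same pair of libraries. The small differences between the sham groups changed sign for some genes: over the fits without 1 library Fbn2 was -0.24 to 0.059, Ltbp1 -0.10 to 0.032, Ltbp4 -0.071 to 0.029 and Mfap5 -0.064 to 0.16, and with the term for numbers starting with 33 Mfap4 was -0.033 and Mfap5 -0.052. Fbn2 in KO TAC against Ctrl TAC was -0.039 to 0.38, the lowest without KO TAC 4. The causes were not tested. Fbn2, with 20 to 91 counts a library, and Mfap2, with 40 to 189, were the members that depth limited most. No paired analysis was possible because the labels give animal numbers only, none of which is shared between groups.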

Other observations

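Other marker lists gave these summed levels, as means of 4 libraries in the order sham Ctrl, sham KO, TAC Ctrl, TAC KO. Pericyte markers (7) were at 1086, 1036, 950 and 922 CPM, endothelial markers (8) at 676, 695, 704 and 697 CPM, and macrophage markers (8) at 153, 142, 201 and 227 CPM. Epicardial markers (8) were at 8.81, 9.21, 9.03 and 13.4 CPM, valve and cartilage-like markers (8) at 21.1, 21.03, 33.3 and 39.7 CPM, and skeletal muscle markers (8) at 1.86, 1.79, 2.93 and 1.77 CPM. The skeletal muscle sum was widely spread in Ctrl TAC, from 1.36 to 6.07 CPM, and overlapped Ctrl sham (1.39 to 2.40 CPM). Adipocyte markers (8) were at 424, 444, 423 and 412 CPM. Atrial markers (6, Nppa among them) were at 150, 167, 1038 and 2330 CPM, of which 3 genes were tested. Nppa rose (2.98 log2 in Ctrl and 3.99 in KO) and Stard10 fell (-0.85 and -1.42), with a list median of 0.47 and 0.36. After TAC 5 of the 7 valve and cartilage-like markers tested were called higher in Ctrl, and 5 higher and 1 lower (Wif1, -1.04 log2) in KO. Of 8 macrophage markers, 5 were called higher in Ctrl and 8 in KO. Over all genes 10.4% were called higher and 9.60% lower after TAC in Ctrl, and 17.8% and 16.5% in KO. Over KO TAC 1, 2 and 3 the last mean of each list was 909 (pericyte), 705 (endothelial), 227 (macrophage), 14.6 (epicardial), 37.6 (valve and cartilage-like), 1.71 (skeletal muscle), 418 (adipocyte) and 2442 CPM (atrial).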
